A study of Homo sapiens with 6 samples.

Results

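Chemokines of the CXC and CC families, interleukin 1 and the NF-kB inhibitors that these pathways induce were examined in DU145 cells treated with taraxasterol (TAX). The 10 genes were chosen by symbol, namely CXCL1, CXCL2, CXCL3, CXCL8, CCL2, CCL20, IL1A, IL1B, NFKBIA and TNFAIP3, and each symbol had 1 row among the 23062 identifiers of each deposited table. DU145 is an androgen-independent human prostate cancer cell line, and TAX is a pentacyclic triterpene of dandelion. RNA of 3 control samples kept in medium and of 3 samples given TAX at its IC50 was sequenced after 48 h, and the cells of both groups were labelled wild type. TAX was dissolved in DMSO, and whether the control cells received DMSO is not stated, so that TAX and its solvent cannot be told apart here. The methods state in general that experiments were repeated, but not whether the sequenced samples of a group came from separate cultures. The p-values therefore measure the spread between these samples, which may be technical.

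CXCL1, CXCL2, CXCL3 and CXCL8 (interleukin 8) are secreted chemokines that draw neutrophils through the receptors CXCR1 and CXCR2, while CCL2 draws monocytes and CCL20 draws cells that carry CCR6. IL1A and IL1B encode the interleukin 1 ligands, which bind IL1R1 and switch on NF-kB. NF-kB then induces the chemokines and also its own inhibitors, among them NFKBIA, whose product IkBα holds NF-kB in the cytoplasm, and TNFAIP3, whose product A20 is a ubiquitin-editing enzyme that shuts off signalling upstream of it.

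The sequences before the RefSeq starts of these genes are shown first, because sites for NF-kB are what the chemokine and inhibitor genes are known to share. RefSeq windows (GRCh38.p14) from 250 bases before to 50 bases after the gene start were searched on both strands for the letters GGAATTTCC and for the 10-letter NF-kB consensus, which may overlap each other. One window was found for 8 of the 10 genes and 2 for IL1A, and no window was used for CCL2. The last 130 bases before the start are given 5′ to 3′ on the strand of the gene, with every base of a match in capitals.
CXCL1: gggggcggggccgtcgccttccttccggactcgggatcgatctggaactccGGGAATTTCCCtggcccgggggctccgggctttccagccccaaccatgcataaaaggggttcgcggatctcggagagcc
CXCL2: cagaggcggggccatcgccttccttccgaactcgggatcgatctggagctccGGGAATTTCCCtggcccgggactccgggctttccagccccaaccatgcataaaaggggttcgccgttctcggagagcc
CXCL3: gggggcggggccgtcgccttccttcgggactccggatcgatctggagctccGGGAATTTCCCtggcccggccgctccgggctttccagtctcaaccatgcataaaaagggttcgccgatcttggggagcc
CXCL8: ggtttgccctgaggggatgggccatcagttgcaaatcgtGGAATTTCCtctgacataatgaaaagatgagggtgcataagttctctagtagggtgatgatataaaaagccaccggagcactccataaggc
CCL20: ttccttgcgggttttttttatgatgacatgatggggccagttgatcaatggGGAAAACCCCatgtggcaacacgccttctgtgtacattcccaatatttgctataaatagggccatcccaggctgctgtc
NFKBIA: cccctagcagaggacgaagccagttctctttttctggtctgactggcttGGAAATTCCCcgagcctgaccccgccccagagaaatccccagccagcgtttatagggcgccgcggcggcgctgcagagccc
TNFAIP3: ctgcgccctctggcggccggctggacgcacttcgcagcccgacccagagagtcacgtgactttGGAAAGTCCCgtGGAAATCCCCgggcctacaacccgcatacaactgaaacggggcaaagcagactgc

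These 7 stretches lie at chr4:73869263-73869392 for CXCL1 and chr4:73740439-73740568 for CXCL8 on the plus strand, and at chr4:74099196-74099325 for CXCL2 and chr4:74038690-74038819 for CXCL3 on the minus strand. RefSeq and GENCODE 29 place the starts of CXCL1 and NFKBIA alike, and their stretches lie directly before the GENCODE genes given below. The starts of the other genes differ. The stretch of CCL20 lies wholly within its GENCODE gene, and those of CXCL2, CXCL3, CXCL8 and TNFAIP3 lie partly within theirs. That of CCL20 lies at chr2:227813712-227813841 (plus strand), that of NFKBIA at chr14:35404750-35404879 (minus strand) and that of TNFAIP3 at chr6:137867129-137867258 (plus strand). GGAATTTCC began 78 bases before the start in CXCL1 and CXCL3, 77 bases before it in CXCL2 and 91 bases before it in CXCL8, and its reverse complement began 81 bases before it in NFKBIA. This word was found in 0.461% of the 35116 windows of the table and in 0.442% of the 13801 windows of tested genes. The consensus was matched around that word in CXCL1, CXCL2, CXCL3 and NFKBIA, in CCL20, at 2 separate places in TNFAIP3 and in 11.3% of all windows (13.4% of those of tested genes), and CXCL8 held only the shorter word. The windows of IL1A and IL1B held neither. The AP-1 word TGANTCA, in 7.71% of all windows and 4.93% of those of tested genes, was found in CXCL8 at 137 bases before the start and in both windows of IL1A. The word TATAAA, in 11.5% of all windows and 5.93% of those of tested genes, was found in CXCL8, CCL20, NFKBIA and 1 window of IL1A. In NFKBIA the match was the reverse complement of this word. A match describes the letters of the window, and binding was not measured.

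In DU145 cells NFKBIA, CXCL8 and CXCL2 were expressed strongly and the interleukin 1 ligands hardly at all. Values are given as FPKM, fragments scaled to gene length and library size, so that levels of different genes can be compared. Over the 6 libraries the mean level was 132 FPKM for NFKBIA, 73.8 for CXCL8, 52.5 for CXCL2, 20.5 for TNFAIP3, 15.6 for CXCL1, 4.21 for CXCL3, 2.85 for CCL20 and 1.47 for CCL2. NFKBIA lay above 97.2% of the 12359 genes that were tested and CXCL8 above 94.0%, while CCL2 lay above 6.44%. IL1A and IL1B had means of 0.0378 and 0.0190 FPKM. In this order the ranges over libraries overlapped between CXCL8 and CXCL2, TNFAIP3 and CXCL1, CXCL3 and CCL20, CCL20 and CCL2, and IL1A and IL1B. CXCL8 was nevertheless above CXCL2 in all 6 libraries, whereas TNFAIP3 was above CXCL1 in 4. Among CXC chemokines outside the 10 genes, CXCL16 had 4.94 to 6.58 FPKM, CXCL6 1.31 to 1.84 FPKM and CXCL5 at most 0.135 FPKM. The receptors CXCR1 and CXCR2 were listed at 0 in every library, as was CCR2, the receptor of CCL2, and CCR6 reached at most 0.0237 FPKM. IL1R1 and its partner IL1RAP were present, at 4.12 to 5.06 and 7.75 to 11.0 FPKM.

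**Figure D1:**
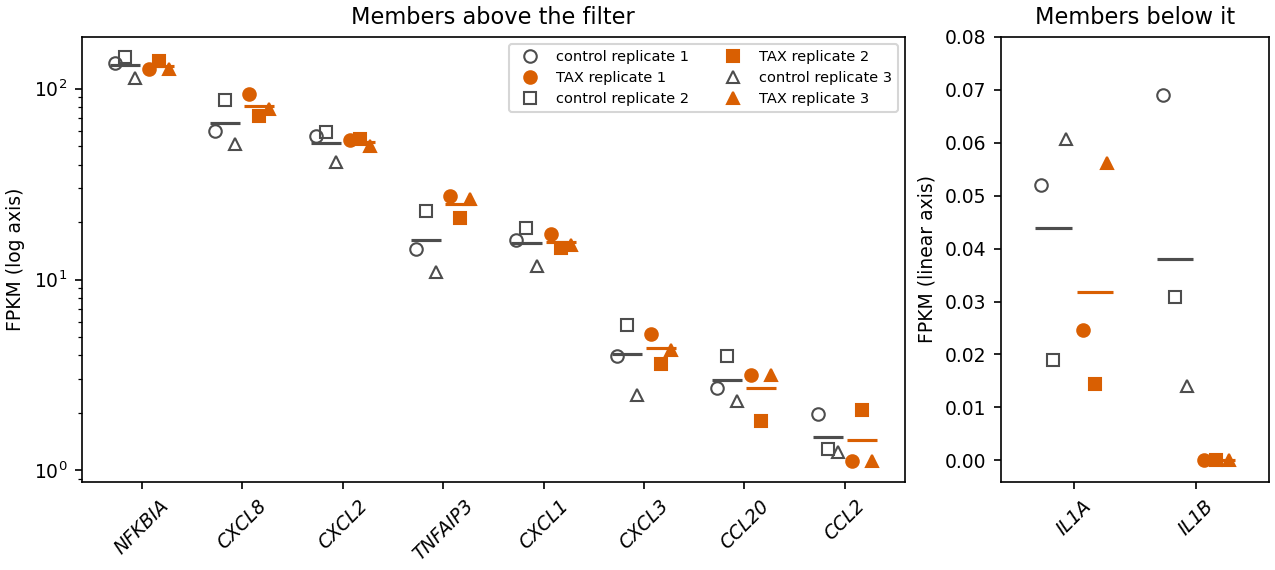
FPKM of the 10 genes in each library, with control libraries as open grey and TAX libraries as filled orange symbols and a bar at each group mean of 3 libraries; the left axis is logarithmic and the right axis linear. The groups share their range in the 8 genes on the left, and IL1B is listed at 0 in all 3 TAX libraries.

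No gene of the group passed the test for a change after TAX treatment. The groups were compared with limma on log2(FPKM + 1) over the 12359 genes that reached 1 FPKM in 3 or more libraries, and p-values were adjusted over all of them. Of the 8 genes above this filter, 0 had an adjusted p under 0.05, where 0.477% of all tested genes had one (0.316% higher and 0.162% lower). At an unadjusted p under 0.05 there was 1 of the 8, TNFAIP3, against 10.1% of all tested genes, and it also differed by 1.5-fold or more, as did 0.437% of all tested genes at this p. The control and TAX libraries did not overlap for 0 of the 8 genes, against 17.9% of all tested genes. Of the 8 log2 fold changes 5 were above 0, and their median was 0.032, beside 0.054 for all tested genes, of which 69.1% were above 0. On this scale the fold change of genes with low FPKM is understated.

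Among the neutrophil chemokines, CXCL8 had the largest difference. Its level was 60.3, 87.7 and 51.4 FPKM in the control libraries, in the order of their replicate numbers, and 93.8, 71.6 and 78.2 FPKM in the TAX libraries. Control replicate 2 lay within the TAX range, and the other control libraries lay below it. For CXCL8 the log2 fold change was 0.31 (standard error 0.17, 95% interval -0.071 to 0.69, limma adjusted p = 0.563), and the exact two-sided permutation test gave p = 0.3, where 0.1 is the smallest p that 3 against 3 libraries allow.

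CXCL2 had 56.2, 59.1 and 41.4 FPKM in the control libraries and 53.8, 54.2 and 50.3 FPKM in the TAX libraries. CXCL1 had 16.1, 18.6 and 11.8 FPKM in the control libraries and 17.3, 14.5 and 15.1 FPKM in the TAX libraries. CXCL3 had 3.96, 5.79 and 2.48 FPKM in the control libraries and 5.19, 3.62 and 4.26 FPKM in the TAX libraries. In each of these 3 genes the TAX libraries lay between the highest and the lowest control library. On the log2 scale the difference was 0.031 for CXCL2 (95% interval -0.24 to 0.30), 0.032 for CXCL1 (95% interval -0.28 to 0.34) and 0.12 for CXCL3 (95% interval -0.33 to 0.57), with limma adjusted p of 0.943, 0.950 and 0.850. The sign of CXCL1 and CXCL2 turned after quantile normalization, after centring of the libraries and without control replicate 3, and that of CXCL1 also without TAX replicate 1. Without control replicate 3 the sign of CXCL3 turned as well.

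CXCL1, CXCL2 and CXCL3 are close paralogs in a cluster on chromosome 4 (GENCODE 29, GRCh38), where CXCL8 lies from 73740506 to 73743716, CXCL1 from 73869393 to 73871242, CXCL3 from 74036589 to 74038807 and CXCL2 from 74097035 to 74099293. Of the stretches of 50 bases in the longest coding transcript, 5.73% were shared with another of these genes in CXCL1, 9.24% in CXCL2, 5.26% in CXCL3 and 0% in CXCL8. How the authors divided reads between the paralogs is not given in the sources used here. Summed over CXCL1, CXCL2 and CXCL3, the level was 76.3, 83.4 and 55.7 FPKM in the control libraries and 76.4, 72.4 and 69.7 FPKM in the TAX libraries (exact two-sided permutation test, p = 0.9). Fitted as 1 row, the sum differed by 0.039 on the log2 scale (standard error 0.13, limma adjusted p = 0.933).

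The share of each gene in the summed FPKM of CXCL1, CXCL2, CXCL3 and CXCL8 does not depend on the scale of a library. CXCL8 made up 44.2%, 51.2% and 48.0% of it in the control libraries and 55.1%, 49.7% and 52.9% for TAX replicates. This is a mean of 47.8% ± 3.54 against 52.6% ± 2.71 (SD, n = 3 each; exact two-sided permutation test, p = 0.2). CXCL1 made up 11.8%, 10.8% and 11.0% for control replicates and 10.2%, 10.1% and 10.2% for TAX replicates, so that its share was lower in every TAX library. The difference was -1.06 percentage points (exact two-sided permutation test, p = 0.1, or 0.267 adjusted over the 4 shares). The mean level of CXCL1 itself was 15.5 FPKM in the control libraries and 15.7 FPKM in the TAX libraries. The shares of CXCL2 and CXCL3 overlapped between the groups. The CXCL8 difference of 4.76 percentage points ranged from 2.94 without control replicate 1 to 6.48 without control replicate 2, and the CXCL2 difference of -3.66 points ranged from -2.14 to -5.44 without the same libraries.

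The CC chemokines and interleukin 1 were low. CCL2, on chromosome 17 from 34255218 to 34257203, had 1.96, 1.298 and 1.24 FPKM in the control libraries and 1.11, 2.08 and 1.12 FPKM in the TAX libraries. CCL20, on chromosome 2 from 227805739 to 227817564, had 2.69, 3.96 and 2.30 FPKM in the control libraries and 3.17, 1.81 and 3.14 FPKM in the TAX libraries. Both the highest value of CCL2 and the lowest value of CCL20 were in TAX replicate 2. On the log2 scale the difference was -0.047 for CCL2 (95% interval -0.39 to 0.30, limma adjusted p = 0.932) and -0.10 for CCL20 (95% interval -0.49 to 0.28, limma adjusted p = 0.849).

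IL1A and IL1B, which lie on chromosome 2 from 112773915 to 112784590 and from 112829751 to 112836903, were below the filter. IL1A had 0.0520, 0.0190 and 0.0607 FPKM in the control libraries and 0.0247, 0.0144 and 0.0562 FPKM in the TAX libraries. IL1B had 0.0689, 0.0308 and 0.0141 FPKM in the control libraries and was listed at 0 in the 3 TAX libraries. An exact 0 in such tables can be a failed estimate, so no fold is given for IL1B. Added to the fit, IL1A and IL1B had limma adjusted p of 0.952 and 0.828. The depth of the libraries is unknown, and whether values this low come from more than a few fragments cannot be seen.

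The NF-kB inhibitors NFKBIA and TNFAIP3 had unlike values. NFKBIA, on chromosome 14 from 35401511 to 35404749, had 137, 147 and 114 FPKM in the control libraries and 127, 140 and 126 FPKM in the TAX libraries. All 3 TAX libraries lay within the control range. The difference on the log2 scale was -0.011 (standard error 0.10, limma adjusted p = 0.975), and the 95% interval from -0.24 to 0.22 corresponds to 0.845-fold to 1.17-fold.

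TNFAIP3, on chromosome 6 from 137867188 to 137883312, had 14.4, 22.9 and 10.9 FPKM in the control libraries and 27.4, 21.0 and 26.3 FPKM in the TAX libraries. Control replicate 2 lay above TAX replicate 2, and apart from this pair every TAX library lay above every control library. The mean was 16.1 ± 6.15 FPKM in the control libraries and 24.9 ± 3.40 FPKM in the TAX libraries (SD, n = 3 each). For TNFAIP3 the log2 fold change was 0.65 (standard error 0.21, 95% interval 0.20 to 1.11, unadjusted p = 0.00966, limma adjusted p = 0.321), and the exact two-sided permutation test gave p = 0.2. Without control replicate 2 it was 0.93 with a limma adjusted p of 0.0273, where 0.350% of the 12283 genes tested were called. Without control replicate 3 it was 0.43 (limma unadjusted p = 0.0580, limma adjusted p = 0.463), so that the unadjusted p was not under 0.05. Over all 14 alternatives the adjusted p lay between 0.0273 and 0.594. The antisense gene AL357060.1 overlaps TNFAIP3, and whether reads were counted by strand is not given in the sources used here. The ratio of TNFAIP3 to NFKBIA, chosen after the values were seen and not tested, was 0.105, 0.156 and 0.0956 for control replicates and 0.217, 0.150 and 0.208 for TAX replicates.

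**Figure D2:**
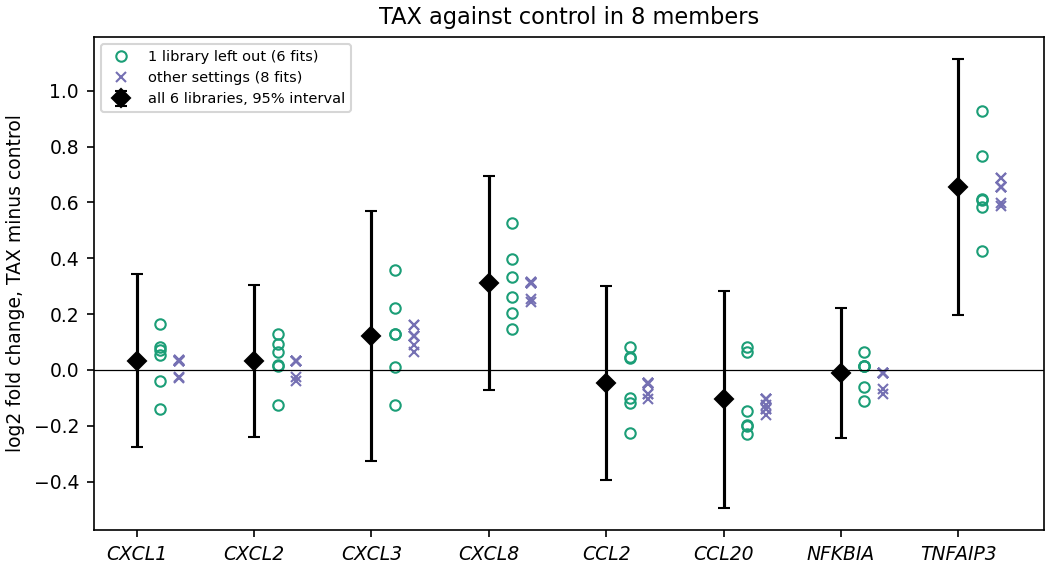
The log2 fold change of TAX against control on the log2(FPKM + 1) scale for the 8 genes above the filter; black diamonds with 95% intervals come from all 6 libraries, green circles from fits without 1 library and purple crosses from other settings. TNFAIP3 lies between 0.43 and 0.93 in all of these fits and CXCL8 between 0.15 and 0.53, while each of the other 6 genes has values on both sides of 0.

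The control libraries differed among themselves in these genes by more than most genes did. TNFAIP3 was 22.9 FPKM in control replicate 2 and 10.9 FPKM in control replicate 3, and CXCL3 was 5.79 and 2.48 FPKM. Control replicate 2 was the highest and control replicate 3 the lowest control library in 7 of the 8 genes, CCL2 being the exception, and 36.2% of all tested genes had this order. Taken singly, control replicate 2 was the highest control library in these 7 genes and in 44.6% of all tested genes, and control replicate 3 the lowest in all 8 and in 72.3% of all tested genes. The SD of log2(FPKM + 1) over libraries was larger in the control than in the TAX group for 6 of the 8 genes and for 73.2% of all tested genes. With libraries centred on their medians the order was the same in 7 of the 8 genes, against 14.8% of all tested genes. The range of log2(FPKM + 1) over the control libraries was 0.36 for NFKBIA and 1.00 for TNFAIP3, the smallest and the largest of the 8 genes, and the median of all tested genes was 0.23. These ranges lay above those of 80.7% to 99.2% of all tested genes. This pattern was noticed in the data and is given as a description, and the 8 genes share their libraries and are no replicates of each other. Control replicate 3 also had the lowest summed FPKM, 322483, and the other libraries had 345464 to 363724. The part of library scale in the order was not tested beyond the centring.

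**Figure D3:**
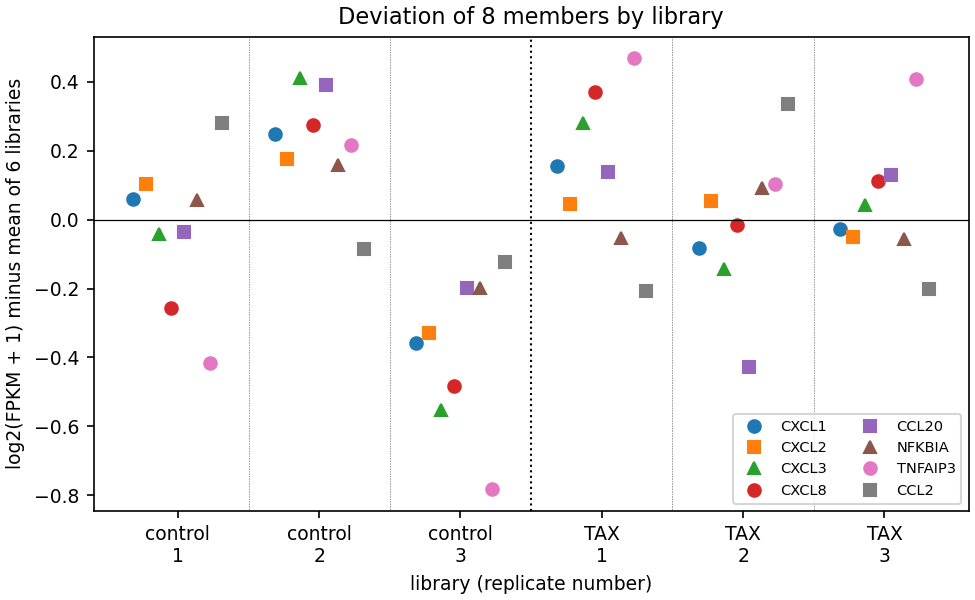
Deviation of log2(FPKM + 1) from the mean of the 6 libraries for 8 genes, 1 column per library and 1 symbol per gene. In control replicate 2 all genes but CCL2 lie above 0, in control replicate 3 all 8 lie below 0, and TNFAIP3 and CXCL8 reach their highest values in TAX replicate 1.

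The genes whose level over the 6 libraries was most like the mean of the 8 genes were MYL5, PANK4, QSOX1, DAGLB and PTPN2. Pearson's r of log2(FPKM + 1) with that mean was 0.995 to 0.997 over 6 libraries. With 12359 genes and 6 libraries, values this high are a description of these libraries. PTPN2, which encodes a tyrosine phosphatase, had 36.1, 39.6 and 31.2 FPKM in the control libraries and 38.3, 35.6 and 36.5 FPKM in the TAX libraries.

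The other genes of the pathway were taken from 9 hand-written lists with 125 genes, 75 of which were above the filter. The lists were chosen with earlier results of these data known, so the shares given for them are a description. Of these 75 genes 1 rose and 0 fell at an adjusted p under 0.05, where 0.316% of all tested genes rose and 0.162% fell. The 1 gene, IL1RL1, passed the filter only through the TAX libraries, so nothing is read from this count. An unadjusted p under 0.05 was found for 19 genes with higher and 2 genes with lower values after TAX treatment. These are 25.3% and 2.67% of the 75 genes, beside 7.73% and 2.41% of all tested genes. Centring of each library gave 15 higher and 4 lower genes, beside 5.52% and 6.59% of all genes, and without TAX replicate 3 there were 8 higher and 2 lower genes of 74, which is 10.8% higher beside 4.55% of all genes. Control and TAX libraries did not overlap in 25 of the 75 genes (33.3%), beside 17.9% of all tested genes. IL1RL1 is among the 19 genes and among the 25 genes.

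IL1RL1 encodes ST2, the receptor of interleukin 33. Its level was 0.471, 0.574 and 0.399 FPKM in the control libraries and 1.49, 1.17 and 1.49 FPKM in the TAX libraries, without overlap. For IL1RL1 the log2 fold change was 0.69 (standard error 0.091), and 1.36 with a pseudocount of 0.1 in place of 1. Under the filter at 1 FPKM a difference was needed for IL1RL1 to be tested, so the adjusted p of that fit is no support for it. The filter at 0.1 FPKM, which the control libraries pass as well, gave a limma adjusted p of 0.0169, and without a filter it was 0.0977, or 0.0879 with the smaller pseudocount. IL33, its ligand, was listed at 0 in every library, and IL1RL1 overlaps IL18R1 on the same strand of chromosome 2.

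Among the subunits of NF-kB, 3 of 5 had an unadjusted p under 0.05 (10.1% of all tested genes) and 0 an adjusted one. Their median log2 fold change was 0.25, beside 0.054 for all tested genes. NFKB2, which encodes the precursor p100, had 44.96, 50.3 and 37.5 FPKM in the control libraries and 58.1, 51.1 and 57.6 FPKM in the TAX libraries (log2 fold change 0.33, limma adjusted p = 0.350). RELB, its partner in the non-canonical pathway, had 11.0, 11.4 and 8.92 FPKM in the control libraries and 13.3, 13.3 and 12.4 FPKM in the TAX libraries (log2 fold change 0.30, limma adjusted p = 0.338). The groups did not overlap in NFKB2 and RELB, 2 of the 5 genes, where 17.9% of all tested genes did not, and they overlapped in NFKB1, RELA and REL. NFKB1 and RELA had log2 fold changes of 0.25 and 0.19 (limma adjusted p = 0.471 and 0.547).

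Of the IkB family beside NFKBIA, 1 of 6 genes had an unadjusted p under 0.05 (16.7%, beside 10.1% of all tested genes), NFKBIB, with 8.69 ± 0.761 FPKM in the control libraries and 10.4 ± 0.552 FPKM in the TAX libraries (SD, n = 3 each; limma adjusted p = 0.411). BCL3, NFKBIE and NFKBID had limma adjusted p of 0.695 to 0.772. Of the 7 IKK and upstream kinases, MAP3K8 and CHUK had an unadjusted p under 0.05 (28.6%, beside 10.1% of all tested genes), with log2 fold changes of 0.28 and 0.19 and limma adjusted p of 0.387 and 0.475. TBK1 and MAP3K14 had log2 fold changes of 0.15 and 0.096 (limma adjusted p = 0.561 and 0.723).

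In the list of TNF and interleukin 1 signalling, 3 of 16 genes (18.8%) had an unadjusted p under 0.05, beside 10.1% of all tested genes, and 0 an adjusted one. The groups did not overlap in 18.8% of the list either, beside 17.9% of all tested genes. IRAK1, a kinase at the interleukin 1 receptor, had 58.4, 59.1 and 51.3 FPKM in the control libraries and 70.5, 71.1 and 70.1 FPKM in the TAX libraries (log2 fold change 0.32, limma adjusted p = 0.190). IRAK2 had 8.16 ± 1.92 FPKM in the control libraries and 11.3 ± 0.545 FPKM in the TAX libraries (SD, n = 3 each; limma adjusted p = 0.265). Both genes were without overlap. TAB3 and TRAF2 had log2 fold changes of 0.20 and 0.15 (limma adjusted p = 0.487 and 0.602), and TNF itself reached at most 0.0475 FPKM.

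Of 14 further feedback genes, CYLD and TRAF3 had higher and ZFP36 lower values at an unadjusted p under 0.05 (14.3% and 7.14%, beside 7.73% and 2.41% of all tested genes), and 0 passed adjusted over all genes. CYLD, a deubiquitinase that like A20 limits NF-kB, had 7.86, 9.72 and 7.72 FPKM in the control libraries and 10.3, 11.7 and 12.5 FPKM in the TAX libraries (log2 fold change 0.41, limma adjusted p = 0.185). ZFP36, whose product tristetraprolin promotes the decay of chemokine and cytokine mRNA, had 12.7, 14.4 and 10.1 FPKM in the control libraries and 9.85, 9.88 and 9.24 FPKM in the TAX libraries (log2 fold change -0.32, limma adjusted p = 0.379). The groups did not overlap in 5 of the 14 genes (35.7%, beside 17.9% of all tested genes), CYLD, TRAF3 and ZFP36 among them. TRAF3 and TNIP2 had log2 fold changes of 0.22 and 0.18 (limma adjusted p = 0.464 and 0.535).

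Among 18 other NF-kB target genes, 6 had higher and 1 lower values at an unadjusted p under 0.05 (33.3% and 5.56%, beside 7.73% and 2.41% of all tested genes), and 0 passed adjusted over all genes. CSF2, which encodes the growth factor GM-CSF, had 2.09, 1.76 and 1.96 FPKM in the control libraries and 3.12, 5.79 and 3.74 FPKM in the TAX libraries (log2 fold change 0.80, limma adjusted p = 0.0711). Its adjusted p lay between 0.0150 and 0.325 over 14 alternatives and was under 0.05 in 1 of them, the fit without TAX replicate 1. TRAF1 and BCL2A1, an adaptor of TNF receptors and an inhibitor of apoptosis, had log2 fold changes of 0.48 and 0.51 (limma adjusted p = 0.0859 and 0.120), and BTG2 had -0.25 (limma adjusted p = 0.402). The control and TAX libraries did not overlap in 8 of the 18 genes (44.4%), beside 17.9% of all tested genes, and these 4, named for the smallest p of the list, were among the 8.

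The remaining lists held few tested genes. Of 24 other chemokines 3 were above the filter, CXCL6 without overlap (log2 fold change 0.18, limma adjusted p = 0.492), CXCL16 with -0.062 (0.868) and CCL28 with -0.016 (0.965). Of the receptors, CXCR4 had 1.87, 5.02 and 1.498 FPKM in the control libraries and 2.22, 1.26 and 1.08 FPKM in the TAX libraries (log2 fold change -0.51, limma adjusted p = 0.564), and IL1R1 and IL1RAP had -0.093 and 0.045 (0.722 and 0.916). Of the interleukin 1 family and its processing, IL18 had 27.1 ± 3.06 and 26.9 ± 1.28 FPKM (SD, n = 3 each; limma adjusted p = 0.984) and the protease CAPN1 had a log2 fold change of 0.21 (limma adjusted p = 0.488). CASP1, NLRP3 and PYCARD, which make up an inflammasome, reached at most 0.0798 FPKM.

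**Figure D4:**
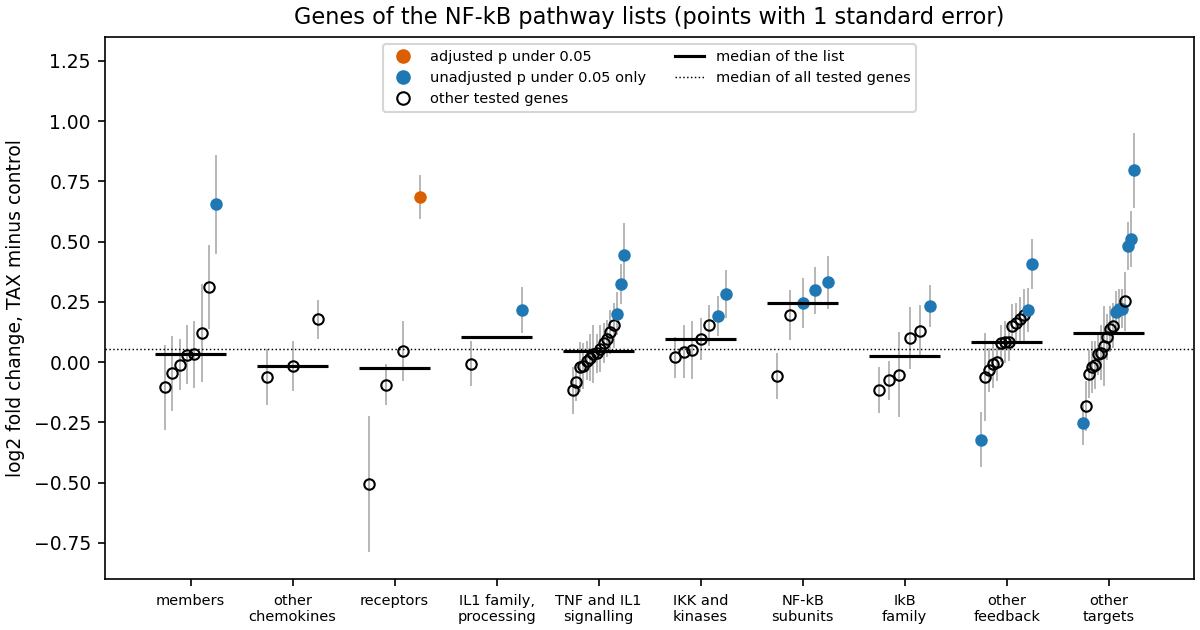
The log2 fold change of TAX against control with 1 standard error for the 8 genes above the filter and the 75 tested genes of the 9 lists, 1 point per gene sorted within its list, with a bar at the median of each list and a dotted line at the median of all tested genes, 0.054. IL1RL1 is the only point with an adjusted p under 0.05 (orange). It passed the filter only through the TAX libraries, so this p is no support for a change. The NF-kB subunits have a list median of 0.25.

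Epithelial markers were expressed in every library, with a summed FPKM of 443 to 562 in the control libraries and 570 to 621 in the TAX libraries for EPCAM, CDH1, KRT8, KRT18, KRT19 and CLDN4. The prostate genes KLK3, KLK2 and FOLH1 were listed at 0. Among 8 markers of leukocytes and blood, PTPRC reached at most 0.00692 FPKM and CD3E and HBB were listed at 0. Their summed FPKM was 20.4 to 26.98 in the control libraries and 32.9 to 34.0 in the TAX libraries. Nearly all of it was CD68, a lysosomal protein gene that many cell types express, with 23.4 ± 3.34 and 33.0 ± 0.482 FPKM (SD, n = 3 each; limma adjusted p = 0.0884). Of 7 fibroblast and endothelial markers, DCN was listed at 0 and the sum was 1.98 to 2.14 in the control libraries and 1.52 to 1.60 FPKM in the TAX libraries, mostly COL1A1.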

How the data were processed

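Each of the 6 libraries has its own deposited table, so replicates were not pooled. The tables do not name the unit, and the deposited values were taken as FPKM from the authors' use of StringTie, whose MSTRG prefix 3130 identifiers carry, and from decimal values that add up to a different sum in each library. The submitters' processing notes name HISAT2 2.2.0, StringTie 2.1.2 and GRCh38. Annotation, filters and strand are not given in the sources used here. No counts were used. Among 140 low genes at most 6.43% of log2 ratios between control replicates 1 and 3 fell in a bin 0.1 wide, so no steps of whole reads were seen and depth is unknown.

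log2(FPKM + 1) of genes that reached 1 FPKM in 3 or more libraries was fitted with limma 3.58.1 in R 4.3.3 (eBayes with trend, no covariate, Benjamini-Hochberg adjustment, tested on simulated data). Members below the filter were added in a second fit. Between libraries of a group Pearson's r over genes was 0.991 to 0.995. Alternatives were another pseudocount (0.1), 2 filters, quantile normalization, centring, no trend, a replicate block and leaving out each library.

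The members and lists were chosen with earlier results of these data known. Named were all members, up to 4 genes per list with the smallest p and the 5 genes most like the members' mean profile. Other genes were named after their values were seen. Positions come from GENCODE 29 (GRCh38), promoters from RefSeq (GRCh38.p14).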

Additional observations from a re-analysis of the deposited data

How the results depend on the processing

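Of all tested genes, 59 were called (39 higher, 20 lower), 95 after quantile normalization (47 and 48), 96 after centring (46 and 50), 37 with a filter at 0.1 FPKM, 1 without a filter, 10 with pseudocount 0.1 and no filter, and 18 to 43 without 1 library. The replicate block gave 26. Deviations of same-numbered libraries correlated at -0.33 to -0.12, no control library correlated best with the TAX library of its number, so the numbers were not taken as pairs, and the block changed no call among the 8 members. Of the members 0 were called in 13 of 14 alternatives, 1 by unadjusted p with 1.5-fold (TNFAIP3), and 0 to 1 without 1 library (TNFAIP3, without control replicate 2). CXCL8 and TNFAIP3 kept the sign of their log2 fold change in all 14. The log2 fold change reversed to -0.030 (quantile) and -0.025 (centring) for CXCL1 and to -0.040 and -0.027 for CXCL2. Without 1 library it ranged from -0.14 to 0.17 for CXCL1, -0.12 to 0.13 for CXCL2, -0.13 to 0.36 for CXCL3, -0.23 to 0.081 for CCL2, -0.23 to 0.082 for CCL20 and -0.11 to 0.065 for NFKBIA. The difference in the summed CXCL1, CXCL2 and CXCL3 ranged from -7.04 to 6.83 FPKM, and that in the share of CXCL3 from -0.324 to 0.209 percentage points. The causes were not tested. IL1A and IL1B had values in the 2 settings without a filter and in the fit they were added to. Depth is unknown, so no counting error can be given for any value.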
